A study of Brachypodium distachyon with 214 samples.

Results

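Among well-watered leaves of the grass Brachypodium distachyon, 32 nuclear loci differed most in expression between plants of the same inbred accession. Expression was given in CPM, the estimated count of a locus scaled to a library total of 1 M (mega) counts. A locus was taken as a member where its mean was at least 10 CPM in the control plants of both Bd21 and Bd3-1 and where the standard deviation (SD) of log2(CPM + 1) across plants was at least 0.9 in each of these groups. Of 32439 nuclear rows in the table, 8395 passed the mean in both control groups and are called expressed loci here, and 32 of them also passed the SD. The members were thus chosen by their level and spread in control plants, so the spread in control plants is a description, and tests were made on droughted plants or between groups.

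Leaf messenger RNA was sequenced from the 3′ end in 214 plants, 1 library per plant, of which 49 were droughted Bd21, 48 control Bd21, 59 droughted Bd3-1 and 58 control Bd3-1. Soil of control plants was held at 85% of field capacity, the water a soil keeps after free drainage. Watering of the droughted plants was cut from day 33 after sowing and their leaves were taken after 6 days, at 55% of field capacity. Both accessions are natural inbred lines, Bd21 being the source of the reference genome, so plants of 1 group are near-identical in genotype. The labels give each library its own replicate number within its group, and the study counts 214 plants.

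Plants of an inbred line differ in gene expression even where genotype and treatment are the same. Genes of defence, secondary metabolism and responses to light and other surroundings are known to be among the more variable ones between like plants, while genes of basic cell functions vary less. Phenylpropanoid enzymes make lignin precursors and flavonoids from phenylalanine, and many of their genes respond to wounding, light and pathogens. In bulk leaf RNA, fewer cells that express a gene and less RNA per cell cannot be told apart.

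Library totals ranged from 0.525 to 8.37 M counts with a median of 1.92 M, and 3 libraries held under 1 M. Sequences encoded in the plastid, the mark of green leaf tissue, took 4.76% to 9.66% of the counts of a library. The plant numbered 59 of droughted Bd3-1 was the 1 plant of its 59 whose profile lay nearer to the mean of droughted Bd21 than to that of the other droughted Bd3-1 plants. Its root mean square difference over the expressed loci was 0.41 from Bd21 and 0.54 from Bd3-1 on the log2(CPM + 1) scale. It was the highest of its group for 6 of the 32 members, and levels and calls that rest on it are given with and without it. Correlations over all droughted Bd3-1 plants, their batch means, batch medians and batch shares of variance include it. Fold changes include it as well unless said otherwise. None of the members matched a gene name in the RefSeq table used, and the study's text describes 1 of them, Bradi4g20520, as a locus of unknown function. Loci are therefore called by their identifiers, in which the first digit after Bradi is the chromosome.

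The members stood far above the spread of most loci. The median SD of log2(CPM + 1) over the 8395 expressed loci was 0.29 in droughted Bd21, 0.31 in control Bd21, 0.30 in droughted Bd3-1 and 0.31 in control Bd3-1. Over the 32 members, the median SD was 1.05 in droughted Bd21, 1.08 in control Bd21, 1.07 in droughted Bd3-1 and 1.11 in control Bd3-1. Counting error alone would give a median SD of 0.16, 0.15, 0.21 and 0.19 in these 4 groups, and at most 0.36 for any member. The Pearson correlation of a member with the log2 total of its library reached at most 0.40 in absolute value, and its median over the members was 0.12 or below in every group. In control plants the rule itself places the SD above counting error at these levels.

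At the threshold the loci ran on without a gap. The members nearest to it were Bradi1g78084, Bradi1g06904 and Bradi1g05788, whose lower control SD was 0.9016, 0.9106 and 0.9129. The loci just outside were Bradi5g02077 at 0.8998, Bradi3g42618 at 0.8920 and Bradi1g59690 at 0.8891.

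**Figure D1:**
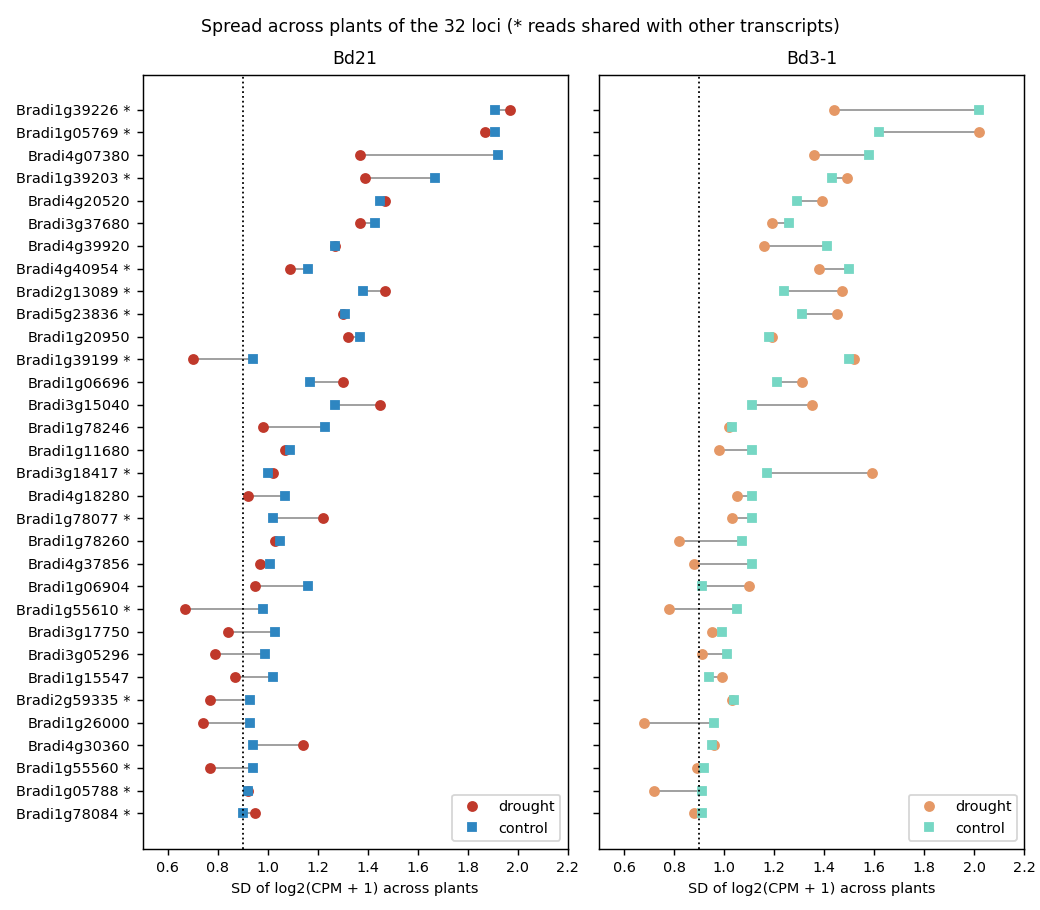
SD of log2(CPM + 1) across plants for the 32 loci, in Bd21 (left) and Bd3-1 (right). Circles are droughted plants, squares control plants, the dotted line is the SD of 0.9 that chose the loci on control plants, and an asterisk marks loci with shared reads; 24 droughted values in Bd21 and 25 in Bd3-1 lie at or above the line.

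The members were of 2 kinds that could be told apart from the counts. A read that matches several transcripts is divided among them by the estimation, which leaves estimates that are not whole numbers. In 14 of the 32 members (43.8%) at least 50% of the estimates above 0 were not whole, against 1310 of 8395 expressed loci (15.6%). These 14 are called loci with shared reads, and their level depends on how reads were divided between similar transcripts. The other 18 rest mainly on reads of their own. This division was drawn after the values had been seen.

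Among the 18 loci with few shared reads, the largest group that varied together held 5 loci on 3 chromosomes: Bradi1g11680, Bradi1g20950, Bradi3g15040, Bradi4g20520 and Bradi4g39920. It was formed on control plants by average linkage at a mean r of 0.5, and was then read in droughted plants, which had no part in choosing or forming it. The mean Pearson r between its 10 pairs was 0.86 in droughted Bd21 and 0.80 in control Bd21. It was 0.78 in droughted Bd3-1 and 0.75 in control Bd3-1. No pair fell below 0.67 in either droughted group.

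Individual plants differed widely at these loci. Bradi4g39920, the most abundant of the 5 loci, had 31.5, 213 and 1804 CPM as its lowest, median and highest values in droughted Bd21, against 36.1, 205 and 3888 CPM in control Bd21. In droughted Bd3-1 the same values were 8.68, 96.6 and 509 CPM, against 9.03, 144 and 1470 CPM in control Bd3-1. The ranges of the treatments overlapped almost fully, while the highest plant of a group stood many times above its median. Bradi3g15040 had 21.9, 116.8 and 1241 CPM in droughted Bd21 and 25.8, 121 and 814 CPM in control Bd21. In Bd3-1 it had 0.360, 6.70 and 277 CPM under drought and 0.531, 9.12 and 70.3 CPM in control plants. The droughted value of 277 CPM belonged to plant 59, and without it the highest was 59.2 CPM. Both Bd3-1 medians were thus below the lowest Bd21 plant at this locus.

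Bradi4g20520, which the study places upstream of a jacalin-like lectin gene in its network, had 6.53, 42.0 and 729 CPM in droughted Bd21 and 3.22, 25.2 and 506 CPM in control Bd21. The Bd3-1 values were 0, 8.22 and 185 CPM in droughted plants and 0.531, 4.53 and 147 CPM in control plants. Without plant 59 the highest droughted value was 68.7 CPM. The lectin gene, Bradi3g19730, had the highest mean r with the 5 loci in control plants among expressed loci outside the members, at 0.89. Its r was 0.91 in droughted Bd21, 0.87 in control Bd21, 0.87 in droughted Bd3-1 and 0.92 in control Bd3-1. In Bd21 alone Bradi3g35680 was closer, with 0.92 in droughted and 0.89 in control plants. The study linked the lectin gene to Bradi4g20520 from expression in these same plants. The r of the lectin gene with the set is thus partly fixed by how it was named. Lectins of the jacalin type bind sugars and occur in grasses among proteins of defence and stress.

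The hub of the 5 loci, the one with the highest mean r to the others in control plants, was Bradi1g20950. It had 7.23, 41.8 and 340 CPM in droughted Bd21, against 2.82, 22.1 and 248 CPM in control Bd21. Plants of Bd3-1 had 1.16, 11.8 and 125 CPM under drought and 0.599, 7.82 and 121 CPM in control plants, and without plant 59 the highest droughted value was 75.1 CPM. The 5th locus, Bradi1g11680, had 7.49, 28.4 and 195 CPM in droughted Bd21, against 5.27, 29.4 and 160 CPM in control Bd21. The closest pair in control plants, Bradi1g20950 and Bradi4g20520, was tested in droughted plants. Its Pearson r was 0.95 in droughted Bd21 (n = 49, permutation p = 1e-05, Spearman's rho 0.94) and 0.90 in droughted Bd3-1 (n = 59, permutation p = 1e-05, rho 0.87). Without the 2 plants farthest from the median of Bradi1g20950, r was 0.94 in droughted Bd21 and 0.88 in droughted Bd3-1. For this pair and the 4 pairs tested further on, 10 relations in all, 1e-05 was the smallest p that 100000 permutations can give, also after Benjamini-Hochberg adjustment.

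In control plants 53 expressed loci outside the members had a mean r above 0.5 with the mean of the 5 loci. Among them were 4 loci listed from the study's text, the lectin gene and 3 others. The study's text names Bradi5g15830 as a gene of phenylalanine ammonia-lyase, the entry enzyme of the phenylpropanoid pathway. Its r with the 5 loci was 0.80 in droughted Bd21 and 0.73 in control Bd21, and 0.41 in droughted Bd3-1 and 0.68 in control Bd3-1. For Bradi3g52350, a 4-coumarate:CoA ligase that activates the acids of the same pathway, r was 0.75 in droughted Bd21, 0.66 in control Bd21, 0.44 in droughted Bd3-1 and 0.62 in control Bd3-1. For Bradi5g15830, 56.5% of the estimates were not whole, so that its reads are shared with similar transcripts. The third, Bradi2g23740, listed for abscisic acid and drought, had an r of 0.52 in droughted Bd21, 0.60 in control Bd21, 0.15 in droughted Bd3-1 and 0.45 in control Bd3-1. These correlations are over plants of 1 group each, which also share growth batches, and no test was made of them. The study names Bradi5g15830 from a group of genes that varied together in these same Bd21 plants. It names Bradi3g52350 from such a group in droughted Bd3-1 and Bradi2g23740 from one in droughted Bd21.

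**Figure D2:**
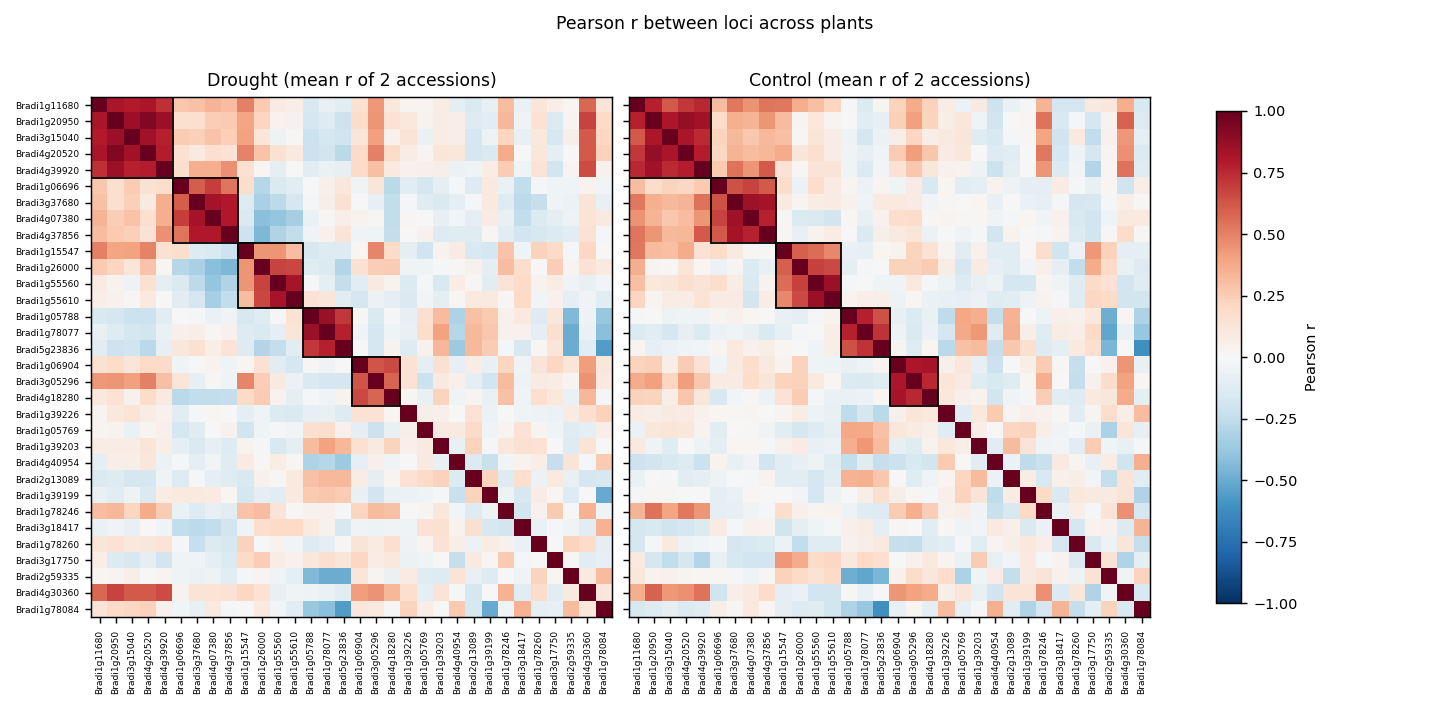
Pearson r between the 32 loci across plants on the log2(CPM + 1) scale, averaged over Bd21 and Bd3-1, in droughted plants (left) and control plants (right). Black frames mark the sets formed on control plants; the set of 5 at the upper left has a mean r of 0.86 in droughted Bd21 and 0.78 in droughted Bd3-1.

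The plants were grown in 4 batches, which the study's table of plants gives, and the 5 loci differed between them. The median of Bradi3g15040 was 54.0, 89.4, 265 and 273 CPM in growth batches 1 to 4 of droughted Bd21, and 51.5, 83.0, 250 and 212 CPM in the same batches of control Bd21. For Bradi1g20950 the medians of batches 1 to 4 were 24.7, 31.1, 66.1 and 86.6 CPM in droughted Bd21 and 11.7, 11.2, 59.9 and 35.4 CPM in control Bd21. Batches 3 and 4 were the higher pair for both loci in both treatments of Bd21, and they were so in control Bd3-1 too. There the medians of batches 1 to 4 were 5.83, 6.75, 13.2 and 11.0 CPM for Bradi3g15040 and 4.54, 7.06, 11.3 and 10.5 CPM for Bradi1g20950. Droughted Bd3-1 plants had 3.80, 8.57, 6.62 and 10.4 CPM for Bradi3g15040 and 11.4, 14.3, 14.6 and 14.8 CPM for Bradi1g20950, with batch 1 the lowest.

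The growth batch was tested in droughted plants in edgeR (quasi-likelihood F-test) with Benjamini-Hochberg adjustment over 26164 tested rows. In droughted Bd21, 5 of the 32 members differed between the batches, and these were the 5 loci of the set. The share of all tested rows called was 0.784%, and of expressed loci 1.61%. Because the 5 loci varied together, their calls are not independent of each other. Their set was also formed on control plants of the same growth batches. The adjusted p was 7.2e-04 for Bradi3g15040, 0.00251 for Bradi4g20520, 0.00361 for Bradi1g20950, 0.0164 for Bradi1g11680 and 0.0190 for Bradi4g39920. In droughted Bd3-1, 2 members were called, Bradi1g78246 and Bradi3g15040, where 0.703% of all tested rows and 1.47% of expressed loci were called. The adjusted p of Bradi3g15040 in Bd3-1 was 0.0338 with plant 59 and 0.604 without it. Whether the batch difference of Bd21 is larger than that of Bd3-1 was not tested.

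The growth batches took 30.5% to 42.3% of the variance of 4 of these loci in droughted Bd21, and 25.3% of that of Bradi4g20520. Control Bd21, which helped to choose and form the set, had shares of 20.4% to 47.1% over the 5 loci. In droughted Bd3-1 the growth batches took 0.779% to 14.3% of the variance of the 5 loci, and in control Bd3-1 7.15% to 26.8%. The median over the expressed loci was 6.41% in droughted Bd21, 5.89% in control Bd21, 5.27% in droughted Bd3-1 and 4.81% in control Bd3-1. Within growth batches the mean r between the 5 loci was 0.81 in droughted Bd21, 0.71 in control Bd21, 0.79 in droughted Bd3-1 and 0.72 in control Bd3-1. The loci therefore varied together among plants of the same batch as well. Within the batches of RNA extraction, of which the study's table gives 16, their mean r was 0.89 in droughted Bd21 and 0.74 in droughted Bd3-1.

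**Figure D3:**
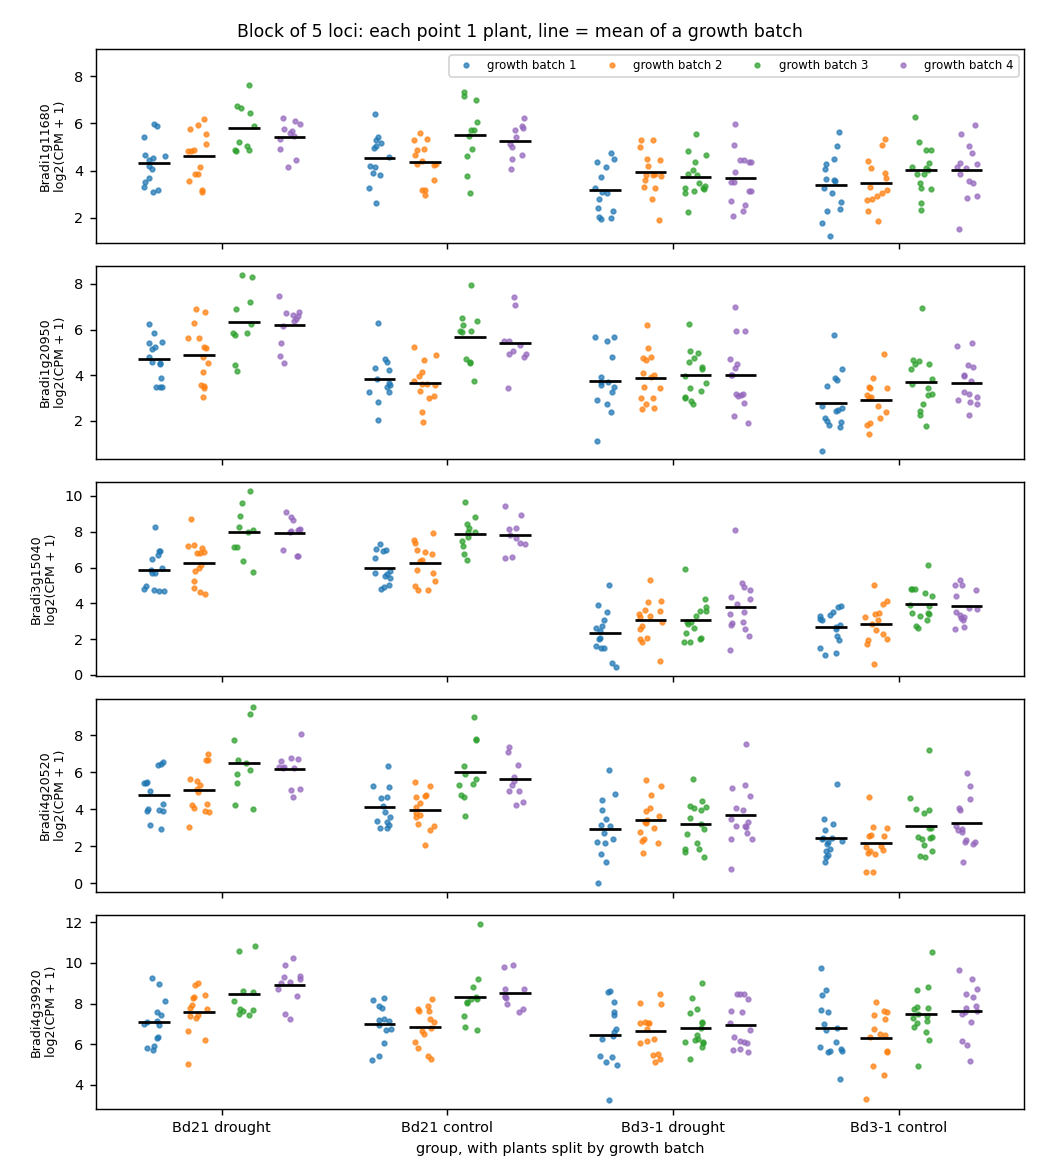
The 5 loci that varied together, as log2(CPM + 1), with 1 point per plant, groups from left to right and plants split and coloured by growth batch; black lines are batch means. In Bd21 the means of batches 3 and 4 lie above those of batches 1 and 2 at each locus in both treatments, as they do in control Bd3-1 and, in droughted Bd3-1, at Bradi1g20950, Bradi3g15040 and Bradi4g39920 only.

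The same 5 loci were all higher in Bd21 than in Bd3-1 under drought. In this comparison 17 of the 32 members passed an adjusted p of 0.05, 14 of them higher and 3 lower in Bd21, where 35.6% of all tested rows and 45.3% of expressed loci were called. Of the expressed loci, 20.4% were called higher and 25.0% lower. Plant 59 was counted as Bd3-1 here, and without it 18 members were called, 15 higher and 3 lower in Bd21. The fold changes that follow include this plant. Bradi3g15040 differed most, with a log2 fold change of 3.74 ± 0.29 (SE, edgeR adjusted p = 3.8e-22), a 13.3-fold higher level in Bd21. Bradi4g20520 was higher by 2.42 ± 0.29 on the log2 scale and Bradi1g20950 by 1.65 ± 0.24. Bradi1g11680 was higher by 1.48 ± 0.19 and Bradi4g39920 by 1.33 ± 0.22. The alignment used transcripts of Bd21 for every plant, and the part that sequence differences of Bd3-1 have in these values was not tested.

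A further 4 loci, Bradi1g06696, Bradi3g37680, Bradi4g07380 and Bradi4g37856, formed a set that was mostly lower under drought. Sets under 5 loci were added after the data had been seen. The mean r between these loci was 0.75 in droughted Bd21, 0.73 in control Bd21, 0.67 in droughted Bd3-1 and 0.73 in control Bd3-1. The pair Bradi3g37680 and Bradi4g07380 had an r of 0.85 in droughted Bd21 (n = 49, permutation p = 1e-05, rho 0.83) and of 0.81 in droughted Bd3-1 (n = 59, permutation p = 1e-05, rho 0.79).

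Bradi4g07380 had 0.904, 7.35 and 117.3 CPM as lowest, median and highest values in droughted Bd21, against 0.482, 55.0 and 908 CPM in control Bd21. In droughted Bd3-1 it had 0.522, 9.57 and 76.8 CPM, against 1.25, 25.8 and 221 CPM in control Bd3-1. The ranges overlapped, and the droughted median was well below the control median in both accessions. The log2 fold change was -2.42 ± 0.32 in Bd21 (adjusted p = 8.8e-10) and -1.49 ± 0.26 in Bd3-1 (adjusted p = 1.1e-06). Bradi3g37680 had 0.839, 9.32 and 145 CPM in droughted Bd21 and 4.61, 58.0 and 470 CPM in control Bd21. In the other accession, Bd3-1, the values were 1.27, 8.71 and 69.8 CPM under drought and 3.31, 41.6 and 204 CPM in control plants. The locus fell by 2.13 ± 0.28 on the log2 scale in Bd21 and by 2.1 ± 0.23 in Bd3-1, nearly the same amount. In 43 libraries its estimate was not whole, and in each of these it made a whole number with that of Bradi3g37670. The sum of both loci was as variable as the member, with an SD of 1.37 in droughted Bd21, 1.45 in control Bd21, 1.21 in droughted Bd3-1 and 1.25 in control Bd3-1.

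Bradi1g06696 had 0, 8.23 and 75.8 CPM in droughted Bd21, against 4.10, 29.0 and 171 CPM in control Bd21, and fell by 1.85 ± 0.24. In Bd3-1 the locus had 0, 4.55 and 67.9 CPM under drought and 0.917, 14.5 and 83.1 CPM in control plants, and fell by 1.36 ± 0.24. Ranges overlapped in both accessions. The remaining locus, Bradi4g37856, was near its control level, with medians of 22.8 CPM in droughted and 26.1 CPM in control Bd21, and 11.2 CPM in droughted and 13.6 CPM in control Bd3-1. It passed the test of drought in neither accession. The 4 loci thus kept varying together in droughted plants while their drought differences were unequal.

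Some loci that followed this set in control plants had a lower r with it under drought. Bradi4g25750 had an r with the mean of the 4 loci of 0.31 in droughted Bd21, against 0.84 in control Bd21, and of 0.17 in droughted Bd3-1, against 0.74 in control Bd3-1. For Bradi4g24650, which the study names as an ortholog of rice ASR5, a gene of the abscisic acid, stress and ripening family, r was -0.28 in droughted Bd21 and 0.47 in control Bd21. In Bd3-1 it was -0.20 under drought and 0.54 in control plants. Its mean level was 507 CPM in droughted Bd21 and 160 CPM in control Bd21, and 303 CPM in droughted Bd3-1 and 112.8 CPM in control Bd3-1. No test was made of the difference between these correlations.

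Another set of 4 held Bradi1g15547, Bradi1g26000, Bradi1g55560 and Bradi1g55610, and some loci that the study's text names for carbon and flavonoid metabolism followed it. The mean r within the set was 0.56 in droughted Bd21, 0.62 in control Bd21, 0.56 in droughted Bd3-1 and 0.66 in control Bd3-1. With 340 expressed loci at a mean control r above 0.5, it had the most neighbours of the 5 sets, which had 53 to 340. The study describes Bradi4g15010 as a gene of starch metabolism. Its r with the set was 0.85 in droughted Bd21, 0.82 in control Bd21, 0.80 in droughted Bd3-1 and 0.78 in control Bd3-1. For Bradi3g04750, a flavonoid 3′-hydroxylase that adds a hydroxyl group to the flavonoid B ring, r was 0.81 in droughted Bd21, 0.84 in control Bd21, 0.73 in droughted Bd3-1 and 0.75 in control Bd3-1. Bradi2g52260, named as a polyphenol oxidase ortholog, an enzyme that browns wounded tissue, had 0.82 in droughted Bd21, 0.78 in control Bd21, 0.75 in droughted Bd3-1 and 0.82 in control Bd3-1. Opposite in sign was Bradi1g22050, a 6-phosphogluconolactonase of the pentose phosphate pathway, with -0.62 in droughted Bd21, -0.54 in control Bd21, -0.70 in droughted Bd3-1 and -0.58 in control Bd3-1. The study names Bradi4g15010, Bradi3g04750 and Bradi1g22050 from a group of genes that varied together in these same droughted Bd3-1 plants. That group also holds Bradi1g55600, which shares reads with Bradi1g55560 and Bradi1g55610. Their r with the set in droughted Bd3-1 is thus partly fixed by how they were named. Bradi2g52260 is named from a group that varied together in these same Bd21 plants.

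Of this set, Bradi1g55560 and Bradi1g55610 belong to a run of 7 loci with shared reads. The run includes Bradi1g55600, in the study's text an ortholog of ELIP2, an early light-induced protein that binds chlorophyll under high light. The 7 estimates summed to a whole number in 99.5% of the libraries, and no smaller part of the run that was tried did so in more than 62.3%. The sum had an SD of 0.59 in droughted Bd21, 0.75 in control Bd21, 0.67 in droughted Bd3-1 and 0.75 in control Bd3-1. That is below the 0.9 of the rule and above the 0.29 to 0.31 of the median expressed locus. The SD of the sum was below that of each of the 2 members in every group, though not below that of each locus of the run, since Bradi1g55550 alone had an SD of 0.24 to 0.28. Lowest, median and highest values of the sum were 74.2, 197 and 461 CPM in droughted Bd21, against 59.1, 185 and 458 CPM in control Bd21. They were 49.5, 165 and 462 CPM in droughted Bd3-1, against 44.4, 101 and 356 CPM in control Bd3-1.

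Within the run, Bradi1g55560 rose under drought. It had 11.2, 49.6 and 135 CPM in droughted Bd21, against 3.09, 20.3 and 85.6 CPM in control Bd21, a log2 fold change of 1.14 ± 0.16 (adjusted p = 3.0e-09). In Bd3-1 it had 5.33, 38.1 and 119 CPM under drought and 2.82, 10.7 and 63.0 CPM in control plants, a log2 fold change of 1.55 ± 0.16 (adjusted p = 2.4e-15). The ranges overlapped, with the droughted median above the control median in both accessions. Bradi1g55610 passed in neither accession, with medians of 80.4 CPM in droughted and 99.6 CPM in control Bd21, and of 60.8 CPM in droughted and 38.6 CPM in control Bd3-1. In droughted plants r between both loci was 0.82 in Bd21 (n = 49, permutation p = 1e-05, rho 0.85) and 0.83 in Bd3-1 (n = 59, permutation p = 1e-05, rho 0.82). Since they draw on the same reads, how far this r and their unequal drought differences come from the division of reads was not tested.

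The remaining loci of the set have reads of their own. Bradi1g26000 had 59.1, 193 and 550 CPM in droughted Bd21 and 47.4, 224 and 761 CPM in control Bd21. The Bd3-1 values were 41.9, 208 and 373 CPM under drought and 23.8, 131 and 515 CPM in control plants. Its lowest plant was higher and its highest plant lower under drought in both accessions, and its SD was 0.74 in droughted against 0.93 in control Bd21, and 0.68 in droughted against 0.96 in control Bd3-1. Bradi1g15547 had medians of 80.4 CPM in droughted Bd21, 77.5 CPM in control Bd21, 27.7 CPM in droughted Bd3-1 and 26.6 CPM in control Bd3-1, and was higher in Bd21 than in Bd3-1 under drought by 1.18 ± 0.18 on the log2 scale.

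A set of 3 held Bradi1g06904, Bradi3g05296 and Bradi4g18280. Its mean r was 0.63 in droughted Bd21, 0.73 in control Bd21, 0.61 in droughted Bd3-1 and 0.86 in control Bd3-1. A putative cell-wall invertase gene of the study, Bradi3g44990, followed it, and its product splits sucrose outside the cell. The r of Bradi3g44990 was 0.62 in droughted Bd21, 0.73 in control Bd21, 0.55 in droughted Bd3-1 and 0.75 in control Bd3-1. The study places this gene in a group that varied together in these same control Bd21 plants. The pair Bradi1g06904 and Bradi4g18280 had an r of 0.62 in droughted Bd21 (n = 49, permutation p = 1e-05, rho 0.61) and of 0.69 in droughted Bd3-1 (n = 59, permutation p = 1e-05, rho 0.68). Within single growth batches of droughted Bd3-1 this r ranged between 0.22 and 0.79.

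These 3 loci were lower under drought in Bd3-1 and differed in opposite directions between the accessions. Bradi3g05296 had 36.2, 85.0 and 366 CPM in droughted Bd21 and 29.0, 85.6 and 713 CPM in control Bd21. In droughted Bd3-1 it had 10.3, 37.6 and 166 CPM, against 34.7, 85.2 and 685 CPM in control Bd3-1, a log2 fold change of -1.51 ± 0.18 (adjusted p = 4.1e-12). Without plant 59 the highest droughted value there was 150 CPM. The ranges overlapped, control medians were close in the accessions, and the median of droughted Bd3-1 was the low one. The log2 fold change of Bradi4g18280 in Bd3-1 was -0.80 ± 0.19 and that of Bradi1g06904 -0.80 ± 0.18. Bradi4g18280 had 1.29, 7.49 and 29.2 CPM in droughted Bd21, against 3.13, 26.0 and 173 CPM in droughted Bd3-1, and was lower in Bd21 by a log2 fold change of -1.96 ± 0.20. Bradi1g06904 was lower in Bd21 as well, at -1.63 ± 0.22, while Bradi3g05296 was higher, at 1.24 ± 0.16.

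The set of Bradi1g05788, Bradi1g78077 and Bradi5g23836 consisted of loci with shared reads and differed between RNA extraction batches. Its mean r was 0.81 in droughted Bd21, 0.71 in control Bd21, 0.76 in droughted Bd3-1 and 0.71 in control Bd3-1. Within extraction batches it was 0.62 in droughted Bd21, 0.59 in control Bd21, 0.63 in droughted Bd3-1 and 0.61 in control Bd3-1. The median of Bradi1g78077 per extraction batch ran between 3.99 and 63.9 CPM in droughted Bd21 and between 8.18 and 63.8 CPM in control Bd21. It ran between 8.21 and 55.6 CPM in droughted Bd3-1 and between 7.53 and 68.4 CPM in control Bd3-1. Batch 13 gave the highest median in all 4 groups. Bradi1g78084, in no set, was highest in batch 16 in all 4 groups, with batch medians between 70.1 and 614 CPM in droughted Bd21 and between 61.9 and 522 CPM in droughted Bd3-1.

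A test over the extraction batches, added after these values had been seen, called 10 of the 32 members in droughted Bd21, where 4.49% of all tested rows and 10.9% of expressed loci were called. In droughted Bd3-1 it called 11, where 4.27% of all tested rows and 10.3% of expressed loci were called. Loci with shared reads made up 7 of the 10 and 5 of the 11. The others were Bradi1g06696, Bradi3g37680 and Bradi4g07380 in droughted Bd21. In droughted Bd3-1 they were Bradi3g15040 and Bradi4g39920 of the largest set, Bradi1g06904, Bradi1g15547, Bradi3g17750 and Bradi4g18280. Bradi1g05788, Bradi1g78077, Bradi5g23836 and Bradi1g78084 were called in both accessions. Their adjusted p lay between 2.3e-08 and 4.2e-06 in droughted Bd21 and between 5.9e-08 and 3.7e-05 in droughted Bd3-1. The batches took 66.6% to 75.2% of their variance in droughted Bd21 and 57.5% to 64.5% in droughted Bd3-1, where the median expressed locus had 38.4% and 32.9%. For these loci the batch means of droughted and control plants went together, with r between 0.86 and 0.92 over 12 batches in Bd21 and between 0.73 and 0.92 over 14 batches in Bd3-1, against medians of 0.42 and 0.32 over expressed loci.

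These loci also followed single sequences of the plastid. Over the 14 members with shared reads, the median of the highest r with any plastid row in control plants was 0.43, and 4 of them exceeded 0.5, up to 0.79 for Bradi1g78084. Only plastid rows with counts in every group were searched. Over the 18 others the median was 0.20 and the highest 0.36. The same value was not computed over all expressed loci, so whether it is particular to these loci was not tested. The pair Bradi1g05788 and Bradi1g78077 had an r of 0.88 in droughted Bd21 (n = 49, permutation p = 1e-05, rho 0.82) and 0.85 in droughted Bd3-1 (n = 59, permutation p = 1e-05, rho 0.79). Within extraction batches it was 0.65 in droughted Bd21 and 0.78 in droughted Bd3-1. The part of shared reads, plastid RNA, extraction and sequencing plate in this covariation was not tested.

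**Figure D4:**
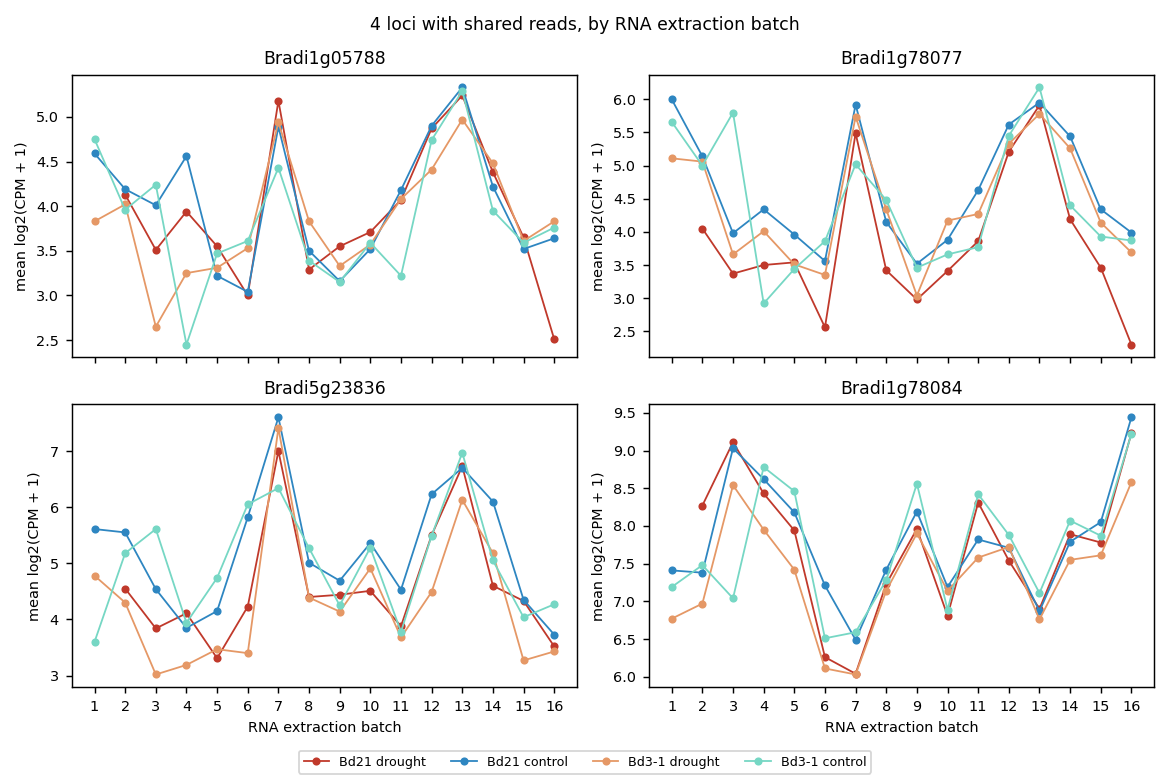
Mean log2(CPM + 1) of 4 loci with shared reads in each of 16 RNA extraction batches, 1 line per group; lines join points for legibility and the batches have no order. Batches 7 and 13 are among the high ones for Bradi1g05788, Bradi1g78077 and Bradi5g23836, and batch 16 is highest for Bradi1g78084. The 4 lines lie apart in some batches. For Bradi5g23836 the means of batch 6, over 3 plants each, are 4.23 in droughted and 5.82 in control Bd21. They are 3.40 in droughted and 6.05 in control Bd3-1.

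For Bradi4g40954 and Bradi2g59335, both with shared reads, a single partner locus made the estimates whole, and the sum varied less than the member. The estimates of Bradi4g40954 and Bradi4g40960 summed to a whole number in each of the 196 libraries in which Bradi4g40954 was not whole. Bradi4g40954 alone had 0, 8.60 and 35.6 CPM in droughted Bd21, against 0, 9.63 and 32.5 CPM in control Bd21, and 0, 10.6 and 51.8 CPM in droughted Bd3-1, against 0, 11.7 and 53.8 CPM in control Bd3-1. Its SD was 1.09 in droughted Bd21, 1.16 in control Bd21, 1.38 in droughted Bd3-1 and 1.5 in control Bd3-1. The sum with its partner, which averaged 68.2 to 78.0 CPM, had an SD of 0.28, 0.34, 0.31 and 0.26 in the same groups. The partner is several times as abundant as the member and had an SD of 0.33, 0.34, 0.32 and 0.28 by itself, so the SD of this sum follows mostly from the partner. The r between member and partner was -0.22, 0.04, 0.03 and -0.29. Bradi2g59335 and Bradi2g59340, of like level, summed to whole numbers in each of 178 libraries, and the r between them was -0.63 in droughted Bd21, -0.53 in control Bd21, -0.50 in droughted Bd3-1 and -0.65 in control Bd3-1. The SD of Bradi2g59335 was 0.77 in droughted Bd21, 0.93 in control Bd21, 1.03 in droughted Bd3-1 and 1.04 in control Bd3-1, and that of the sum was 0.32, 0.30, 0.31 and 0.29. Both sums varied about as much as the median expressed locus.

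**Figure D5:**
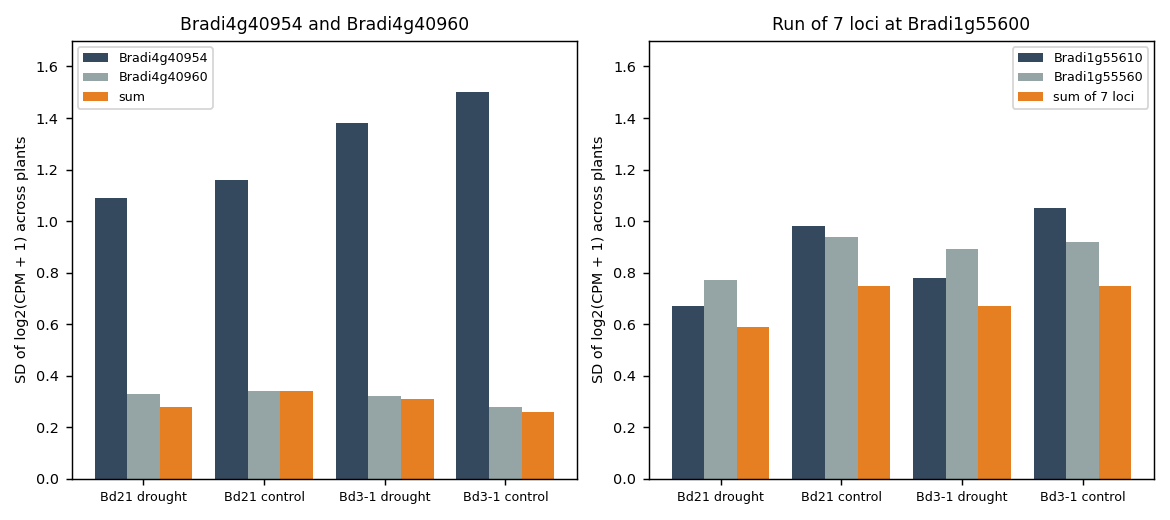
SD of log2(CPM + 1) across plants in each group (bars from 0) for Bradi4g40954, Bradi4g40960 and their sum (left), and for Bradi1g55610, Bradi1g55560 and the sum of the run of 7 loci (right). The sum on the left lies between 0.26 and 0.34, and that on the right between 0.59 and 0.75.

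Of the 4 members with the highest mean control SD, 3 were loci with shared reads whose low plants were at or near 0, namely Bradi1g39226, Bradi1g05769 and Bradi1g39203, and the other was Bradi4g07380 of the set lower under drought. Bradi1g39226 had 0, 198 and 393 CPM in droughted Bd21 and 0.106, 165 and 373 CPM in control Bd21. Plants of Bd3-1 had 0.112, 213 and 445 CPM under drought and 0.0313, 165 and 413 CPM in control plants. No plant of any group exceeded 4 times its group median, and 4, 3, 2 and 5 plants of these groups lay more than 4-fold under it, with an SD of 1.97, 1.91, 1.44 and 2.02. Bradi1g05769 was alike, with medians of 57.0 CPM in droughted Bd21, 45.2 CPM in control Bd21, 62.4 CPM in droughted Bd3-1 and 50.1 CPM in control Bd3-1. It was at 0 in 3, 3, 1 and 2 plants of these groups. Bradi1g39203 was at 0 in 5 droughted and 7 control Bd21 plants and in 10 droughted and 7 control Bd3-1 plants. Bradi2g13089, also with shared reads, was at 0 in 5 droughted and 4 control Bd21 plants and in 7 droughted and 4 control Bd3-1 plants. No other single locus made the estimates of these 4 loci with shared reads whole.

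As a group, the members were nearly as variable under drought as in control plants. The log2 ratio of the SD in droughted over control plants had a median of -0.06 over the members in Bd21, with 22 lower and 10 higher. In Bd3-1 the median was -0.05, with 19 lower and 13 higher. Over expressed loci the median was -0.08 in Bd21, where 63.0% of loci had a lower SD under drought, and -0.02 in Bd3-1, where 53.5% had. Because a high control SD chose the members, a somewhat lower SD elsewhere is partly fixed by the choice. The 32 loci that the same rule gives on droughted plants had a median ratio of 0.10 in Bd21 and 0.16 in Bd3-1, the opposite direction. No test was made of these ratios.

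Of the 32 loci that the rule finds in droughted plants, 16 were members, 50.0% of each list. All 5 loci of the largest set were among these 16, as were Bradi3g37680 and Bradi4g07380. Of the 16 members that did not pass in droughted plants, 4 failed the mean of 10 CPM and 12 had an SD under 0.9 in at least 1 accession. Of these 12, 3 had a low SD in both accessions, namely Bradi1g26000, Bradi1g55560 and Bradi1g55610, which belong to the same set.

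In Bd21 the SD narrowed most for Bradi1g55610 and Bradi4g07380, and in Bd3-1 for Bradi1g26000 and Bradi1g39226, whose values are given above. For Bradi1g55610 the SD was 0.67 in droughted against 0.98 in control Bd21, and 0.78 in droughted against 1.05 in control Bd3-1. For Bradi4g07380 it was 1.37 in droughted against 1.92 in control Bd21, and 1.36 in droughted against 1.58 in control Bd3-1. The median of Bradi4g07380 in Bd21 was 7.35 CPM under drought against 55.0 CPM in control plants. At the lower level the added 1 narrows log2(CPM + 1) more, and its part in this difference was not tested. Bradi1g06696, of the same set as Bradi4g07380, was wider under drought, with an SD of 1.3 in droughted against 1.17 in control Bd21, and 1.31 in droughted against 1.21 in control Bd3-1. Bradi3g15040 of the largest set was also wider in both accessions. Its SD was 1.45 in droughted against 1.27 in control Bd21, and 1.35 in droughted against 1.11 in control Bd3-1. Without plant 59 the SD in droughted Bd3-1 was 1.18. Bradi3g18417, a locus with shared reads, had an SD of 1.59 in droughted against 1.17 in control Bd3-1, and was at 0 in 8 droughted and 3 control plants there. In Bd21 its SD was 1.02 in droughted and 1.00 in control plants.

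The share of members whose mean level passed the test of drought was 25.0% in Bd21 and 40.6% in Bd3-1. Both shares lay below those of expressed loci and above those of all tested rows. The members were chosen for a wide spread in control plants, which makes a call less likely. A share below that of expressed loci is thus partly fixed by the choice. In Bd21, 8 of 32 members were called by edgeR at an adjusted p of 0.05, 2 higher and 6 lower, where 22.3% of all tested rows and 37.0% of expressed loci were called. Of the expressed loci, 17.0% were called higher and 20.0% lower. In Bd3-1, 13 were called, 3 higher and 10 lower, where 30.8% of all tested rows and 49.4% of expressed loci were called. Of the expressed loci, 25.7% were called higher and 23.7% lower. The mean of at least 10 CPM was asked of control plants, which form 1 side of this comparison, so a preponderance of lower loci is partly fixed by the choice. In both accessions 7 loci were called in the same direction. Bradi1g20950 and Bradi1g55560 were higher, and Bradi1g06696, Bradi1g06904, Bradi1g78260, Bradi3g37680 and Bradi4g07380 lower.

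Of loci in no set, Bradi1g78260 fell in both accessions. It had 3.78, 33.9 and 108 CPM in droughted Bd21 and 12.4, 65.8 and 316 CPM in control Bd21, a log2 fold change of -1.07 ± 0.19 (adjusted p = 1.9e-06). In the other accession, Bd3-1, the values were 5.28, 24.5 and 77.9 CPM under drought and 5.00, 59.5 and 427 CPM in control plants, a log2 fold change of -1.52 ± 0.17 (adjusted p = 1.4e-13). Bradi1g78246 rose in Bd3-1 by 1.04 ± 0.20, with 5.74, 23.0 and 259 CPM under drought and 1.23, 11.3 and 65.9 CPM in control plants. The hub of the largest set, Bradi1g20950, rose by 0.76 ± 0.26 in Bd21 (adjusted p = 0.0267) and by 0.61 ± 0.23 in Bd3-1 (adjusted p = 0.0338). Without plant 59 its log2 fold change in Bd3-1 was 0.47 with an adjusted p of 0.102, so the call in Bd3-1 rests on that plant. Bradi1g06904 in Bd21, at -0.74 ± 0.27, lost its call with growth batch as an added term, where the log2 fold change was -0.51 and the adjusted p 0.129. Bradi4g39920 in Bd3-1, at -0.59 ± 0.22, did so too, with -0.52 and 0.0643.

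The difference between the drought responses of the accessions was tested as an interaction at an adjusted p of 0.1. It called 3 members, 2 with a positive and 1 with a negative difference, where 1.65% of all tested rows and 2.64% of expressed loci were called. Of all tested rows 0.550% were positive and 1.10% negative, and of expressed loci 0.715% and 1.93%. Bradi3g05296 had a drought log2 fold change higher in Bd21 than in Bd3-1 by 1.33 ± 0.27 (adjusted p = 8.0e-04). For Bradi4g30360 it was higher by 0.89 ± 0.26 (adjusted p = 0.0522). This locus had 5.82, 64.2 and 201 CPM in droughted Bd21 and 9.05, 68.1 and 327 CPM in control Bd21, against 2.89, 20.7 and 87.8 CPM in droughted Bd3-1 and 9.09, 45.8 and 232 CPM in control Bd3-1. For Bradi1g26000 the difference was -0.75 ± 0.22 (adjusted p = 0.0538).

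Bradi4g20520 was the 1 member among the loci that the study's text describes, which were listed for the spread of known pathways beside that of the members. Of 6 loci listed for the circadian clock, 5 were expressed loci. Their median SD was 0.57 in droughted Bd21, 0.59 in control Bd21, 0.65 in droughted Bd3-1 and 0.56 in control Bd3-1. The highest was 0.83, in droughted Bd3-1, for Bradi1g29680, an ortholog of Arabidopsis clock regulators of the REVEILLE family. Of 11 loci listed for light response, carbon and flavonoid metabolism, 7 were expressed, with a highest SD of 0.86, in control Bd3-1, for Bradi3g04750. Of 7 listed for phenylpropanoids and wounding, 3 were expressed, with a highest SD of 0.73, in droughted Bd21, for Bradi5g15830. Of 13 listed for abscisic acid and drought, 3 were expressed, and their SD reached at most 0.46. Of 7 listed for NAC factors and chlorophyll, 4 were expressed, with a highest SD of 0.69, in droughted Bd3-1, for Bradi4g36060. Of 4 listed with the dehydrins, Bradi4g24650 alone was expressed, with an SD of 0.47 in droughted Bd21, 0.34 in control Bd21, 0.48 in droughted Bd3-1 and 0.36 in control Bd3-1. An expressed locus needed a mean of at least 10 CPM in control plants of both accessions. Listed loci below that mean, including any raised by drought, are left out, so these SDs do not describe whole pathways.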

How the data were processed

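Plants were sequenced by 3′ digital gene expression. Per the methods and the submitters' processing notes, the authors used Trimmomatic 0.39 and cutadapt 2.10 for trimming and Bowtie2 2.4.0 for alignment to Bd21 primary transcripts and plastid sequences, removed duplicates by molecular identifier and estimated counts (RSEM 1.3.3). The deposited values are expected counts, not normalized, of which 86.3% above 0 were whole (within 0.005). Groups came from the labels, and growth batches, plates and extraction batches from the study's table of plants.

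CPM used all 32523 rows. Tests used rounded counts of the 26164 rows above 0 in more than 10 libraries, with TMM factors, in edgeR 4.0.16 under R 4.3.3 (quasi-likelihood F-test), adjusted by Benjamini-Hochberg over these rows. Standard errors are the log2 fold change over the square root of F. In counts simulated for drought in Bd21, all of the 50 genes raised at each of 1.5, 2 and 4 fold were recovered (100%), and 3.38% of calls were unchanged genes. The simulated spread was that of typical loci of the same level. Recovery for loci as variable as the members was therefore not tested, and an uncalled member may still differ. DESeq2 1.42.0 was an alternative, and the study's own test.

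Members and lists were chosen with earlier results of these data known. Named loci were the 10 of highest control SD, the hub and most abundant loci of sets, loci with a role in the study's text, those moving most in level or SD, and those at the threshold. The names of loci in the study's text were not checked. Replicate numbers were not taken to pair plants. The deviations of same-numbered droughted and control plants correlated above 0.1 in 31 of 48 pairs of Bd21 and 31 of 58 of Bd3-1. Their median r was 0.16 in Bd21 and 0.13 in Bd3-1. The best match had the same number in 7 of 48 cases in Bd21 and 2 of 58 in Bd3-1. Whether the numbers reflect a pairing was not tested. Sets under 5 loci, the division by shared reads and the extraction batch were added after the data had been seen.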

Additional observations from a re-analysis of the deposited data

Results flagged for a closer look

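For 3 members, the test of the difference between the accessions' drought responses passed an adjusted p of 0.1 (edgeR). The fold change of Bd21, less the one of Bd3-1 and on the log2 scale, was 1.33 for Bradi3g05296, 0.89 for Bradi4g30360 and -0.75 for Bradi1g26000.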

How the results depend on the processing

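The number of members was 11 with log2(CPM + 5), 20 without the highest and lowest plant of each group, 56 and 20 with an SD of at least 0.8 and 1.0, 49 and 15 with a mean of at least 5 and 20 CPM, and 18 without loci with shared reads, against 32. The 5 loci that varied together became 7 at a mean r of 0.4, with Bradi1g78246 and Bradi4g30360, and a mean r of 0.76 in droughted Bd21 and 0.50 in droughted Bd3-1. Growth batch called 1 member in droughted Bd3-1 without plant 59, against 2. Among loci with few shared reads, extraction batch called 3 in droughted Bd21 and 6 in droughted Bd3-1, against 10 and 11 of all members.

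Of 403 alternative fits of called members, 388 kept call and direction, 15 lost the call and 0 changed direction. With DESeq2, Bradi1g06904 lost its call for drought in Bd21 (-0.36) and Bradi1g06696 that for accession under drought (0.65). It also ended the calls for extraction batch of Bradi1g06696, Bradi2g13089 and Bradi4g07380 in droughted Bd21 (7 called, against 10) and of Bradi4g18280 in droughted Bd3-1. With the replicate number as a block, 9 members were called for drought in Bd21, 16 in Bd3-1, 19 for accession under drought and 3 for the interaction. The block ended the calls of Bradi1g06904 (-0.42) and Bradi1g26000 (-0.36) in Bd21, Bradi4g39920 (-0.37) in Bd3-1 and the interaction of Bradi4g30360 (0.75, adjusted p = 0.244). The cause was not tested. The pseudocount, the plants at the extremes and the division of shared reads limit which loci count as most variable.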
